A study of Homo sapiens with 18 samples.

Results

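The genes described here are 40 genes of the amino acid response and of the stress response of the endoplasmic reticulum (ER), chosen by name from a list. These genes were chosen with earlier results of these data known. They are 22 genes of the amino acid response (transcription and signalling factors, biosynthetic enzymes, transporters and the receptor VLDLR) and 18 genes of ER stress (the sensor ERN1, the factor XBP1, chaperones, folding enzymes and genes of ER-associated degradation). All 40 matched a single Ensembl gene among the 63677 in the table, and all 40 passed the filter on low counts, which left 18121 genes. Poly(A) RNA of WM989, an established human melanoma line, was sequenced in 18 libraries, 3 in each of 6 groups. The series compared cells with and without inhibition of DOT1L, the enzyme that methylates lysine 79 of histone H3. DMSO, the solvent, was the control, and EPZ5676, a DOT1L inhibitor, was given at 4 µM, each for 7 days. Under each agent there were a bulk population, cells with high NGFR and EGFR (high cells) and cells with low NGFR and EGFR (low cells). All groups come from this single line and no engineered allele is named. The way in which high and low cells were separated is not given in the sources used here.

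Cells that run short of an amino acid, or that carry unfolded protein in the ER, phosphorylate the initiation factor eIF2, which lowers protein synthesis but raises translation of ATF4. ATF4, with partners of the C/EBP family, then drives genes that import and make amino acids and charge tRNAs, and, under lasting stress, the factors DDIT3 (CHOP) and TRIB3. The ER has its own sensors: ERN1 (IRE1) splices the XBP1 mRNA, and spliced XBP1 and cleaved ATF6 raise chaperones, disulfide isomerases and degradation genes. Melanocytes are secretory and pigment-making cells with a developed ER. Much of this control acts on translation, splicing and phosphorylation, which counts of RNA per gene do not report.

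Promoter sequences are shown because both branches act through short DNA motifs that can be read in the members themselves. RefSeq promoter sequences (GRCh38.p14) were matched for 35 of the 40 genes, and the 250 bases before the start were searched on both strands. The C/EBP-ATF element, TGATGNAA, was present in 4 of 35 member promoters (11.4%) and in 870 of all 27305 promoters (3.19%). The ER stress element, CCAAT and CCACG 9 bases apart, was present in 6 of 35 (17.1%) and in 22 of 27305 (0.0806%). The motif TGACGTGG was present in 1 of 35 (2.86%) and in 182 of 27305 (0.667%). None of the 11 members with a match had more than 1 of these 3 motifs. The C/EBP-ATF element was in ASNS, BCAT1, CHAC1 and HERPUD1, the paired motif in CALR, CANX, CRELD2, HSP90B1, HSPA5 and XBP1, and TGACGTGG in HYOU1. A match describes letters and not a site in use, and these motifs are known from genes of these very pathways. Windows of 8 members are given here 5′ to 3′ on the gene's strand, with the motif or its reverse complement in capitals.
ASNS: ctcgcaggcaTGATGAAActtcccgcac
BCAT1: gtcttcctgcTGATGCAAtccgctaggt
CHAC1: tcccctgccgTTGCATCActcctgccag
HSPA5: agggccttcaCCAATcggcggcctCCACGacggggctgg
XBP1: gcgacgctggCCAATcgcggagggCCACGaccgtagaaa
CALR: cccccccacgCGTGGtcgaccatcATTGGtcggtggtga
CANX: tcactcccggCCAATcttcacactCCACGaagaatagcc
HYOU1: gctggccccgTGACGTGGtccaatccca

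The ASNS window is at chr7:97872459-97872486 on the minus strand, 78 to 51 bases before the start. That of BCAT1 is at chr12:24949132-24949159 on the minus strand and that of CHAC1 at chr15:40953252-40953279 on the plus strand. HSPA5 has its window at chr9:125241381-125241419 and XBP1 at chr22:28800593-28800631, both on the minus strand and within 76 bases of the start. The CALR window, at chr19:12938374-12938412, and the CANX window, at chr5:179698768-179698806, are on the plus strand. The HYOU1 window is at chr11:119057376-119057403 on the minus strand. All lie upstream of the annotated start in that build. The reads were counted on hg19, so these positions belong to the promoters and not to the counts.

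Between 13383741 and 26311674 reads were counted on genes in each library, and levels are given in CPM, a gene's count scaled to library size with TMM factors. Reads on no feature made up 12.8% to 28.65% of a library, and the 6 libraries over 16% were 5 of the 9 under EPZ5676 and 1 of the 9 under DMSO (high replicate 3). DMSO bulk replicate 1 stood apart, with a summed level of 8 melanocytic markers of 5006 CPM, against 10270 and 10530 CPM in the other bulk libraries under DMSO. The sort matched its labels: NGFR averaged 572 CPM in high and 1.00 CPM in low cells under DMSO, and EGFR 75.9 and 2.79 CPM. DOT1L RNA, which an inhibitor of the enzyme need not change, differed by -0.18 ± 0.07 log2 between EPZ5676 and DMSO in high cells. In bulk cells it differed by -0.255 ± 0.068, and it was not called in bulk, high or low cells. It was called higher in high than in low cells, at 0.73 ± 0.07 under DMSO and 0.64 ± 0.07 under EPZ5676. The melanocytic genes were detected in every group, while the summed level of 6 leukocyte markers stayed between 0.548 and 2.46 CPM. Nothing in the labels says that replicates came from separate cultures, so p-values measure only the spread between these libraries.

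High cells were compared with low cells under DMSO to ask how the sorted state differs in these genes. A gene is called where the adjusted p (edgeR quasi-likelihood test, Benjamini-Hochberg over all 18121 genes) is under 0.05. High cells carried less RNA of most genes that bring in or make amino acids, led by the transporters SLC7A5 and SLC7A11, and of several ER chaperones, while CEBPB, CHAC1, BCAT1, XBP1 and ERN1 were higher. Of the 40 genes, 30 were called (75.0%), 8 higher and 22 lower in high cells, against 56.3% of all genes tested, of which 29.6% were called higher and 26.7% lower. A limit of a mean of at least 5 CPM removed CHAC1 alone of the members. With it 28 members were called, 9 higher and 19 lower, against 69.3% of all genes so kept. The share of members called was then near that of all genes, so the excess of called members depends on the low-count genes in the background. The median log2 fold change of the 40 was -0.19, against 0.03 over all genes. At least 1.5-fold changes were called in 11 members, 10 of them in the amino acid response, against 31.6% of all genes tested. Libraries of the groups did not overlap for 11 higher and 20 lower members, against 31.6% and 28.7% of all genes. RNA per library cannot tell fewer cells of a type from less RNA per cell, which holds for each result here. The melanocytic markers moved with the sort, with 8 of 8 lower and a summed level of 1235 to 1448 CPM in high against 11340 to 11810 CPM in low cells. Of 8 fibroblast markers 7 were higher and LUM was lower, with summed levels of 1180 to 1510 against 73.6 to 77.4 CPM, and no marker of either list was at 0 in a group under DMSO. The part of either list in the results was not tested.

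**Figure D1:**
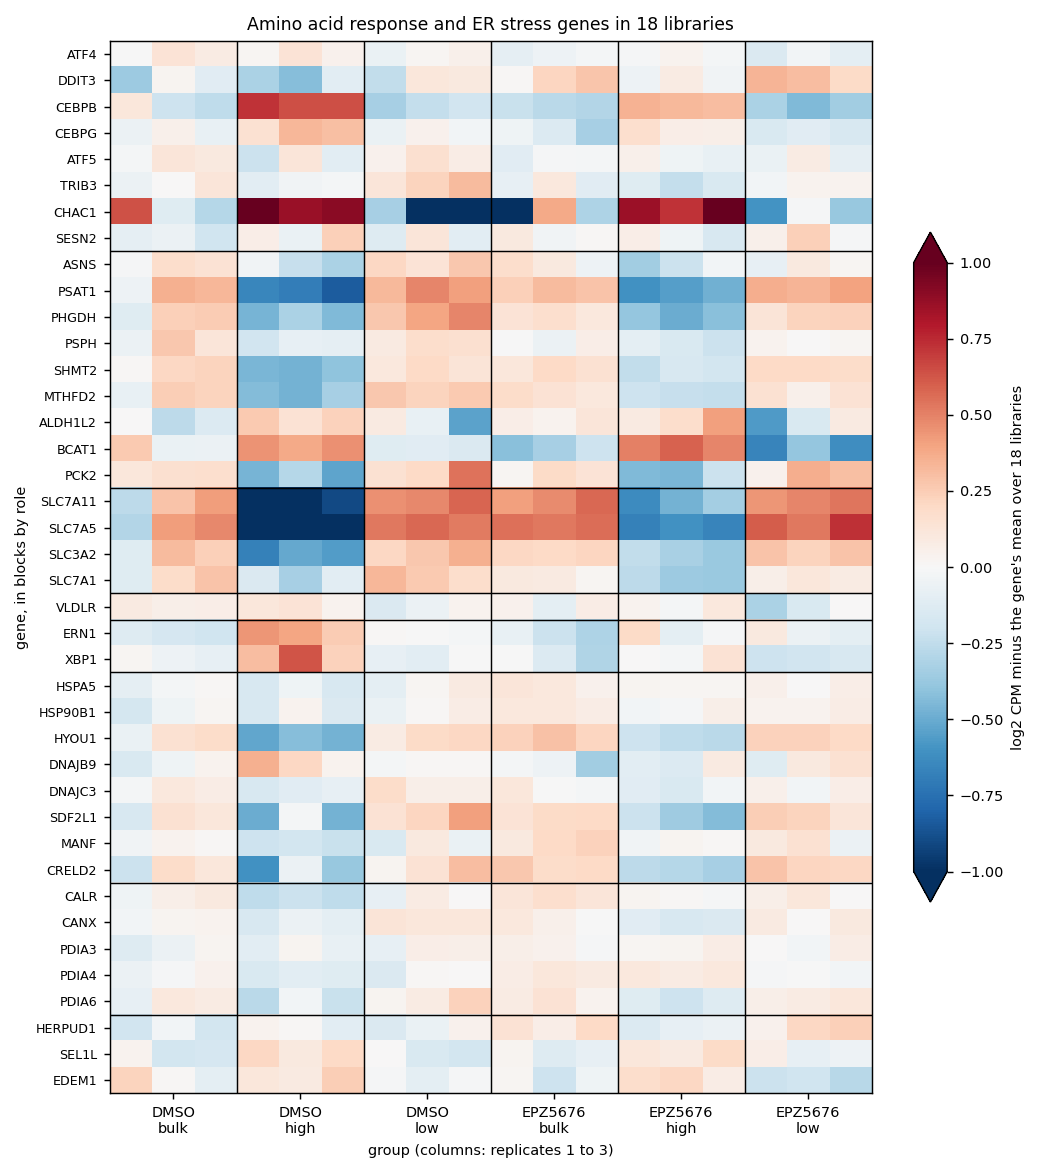
Log2 CPM of the 40 genes (vertical axis, in blocks by role) in each of the 18 libraries (horizontal axis, replicates 1 to 3 of each group), as the difference from the gene's mean over the 18 libraries. Blue is lower and red higher, and the scale stops at 1 in either direction. SLC7A11, SLC7A5 and PSAT1 are lowest in DMSO high cells, CEBPB is highest there, and DMSO bulk replicate 1 lies between the other bulk libraries and the high cells for SLC7A11, SLC7A5 and SLC3A2.

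The transporters SLC7A5 and SLC7A11 showed the widest differences among the members called lower. SLC7A5, the catalytic chain of the LAT1 exchanger that takes up leucine and other large neutral amino acids, measured 100.3, 96.4 and 108 CPM in the DMSO high libraries and 350.4, 363 and 349 CPM in the low ones. Its log2 fold change was -1.80 ± 0.14 (SE, adjusted p = 1.25e-07), or 3.49-fold lower. SLC7A11, the cystine importer of system xc-, measured 16.9, 11.96 and 18.4 CPM in high and 47.2, 47.8 and 51.2 CPM in low cells. No high library came near a low one for either gene, and the SLC7A11 fold change was -1.64 ± 0.16 (SE, adjusted p = 2.41e-07). SLC3A2, the heavy chain that both transporters need at the membrane, stood at 165, 184 and 179 CPM in high and 303, 318 and 337 CPM in low cells, a change of -0.86 ± 0.08 (SE, adjusted p = 1.21e-08). SLC7A1, which carries arginine and lysine, measured 198, 174 and 204 CPM against 277, 264 and 248 CPM. Its groups did not overlap either, at a smaller -0.45 ± 0.08 (SE, adjusted p = 3.84e-05). All 4 transporters were thus called lower, against 26.7% of all genes, with a median log2 fold change of -1.25.

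Among 9 enzymes, 7 were called lower, against 26.7% of all genes, BCAT1 was called higher and ALDH1L2 was not called. The serine pathway was lower at each step. PHGDH, which commits glycolytic 3-phosphoglycerate to serine, measured 237, 263 and 241 CPM in high and 395, 431 and 459 CPM in low cells, a log2 fold change of -0.79 ± 0.08 (SE, adjusted p = 2.81e-08). PSAT1, the transaminase that follows it, measured 44.6, 43.6 and 39.5 CPM in high and 87.7, 98.4 and 93.3 CPM in low cells. Its change of -1.13 ± 0.08 (SE, adjusted p = 7.83e-10) had the smallest p of the 40 genes. PSPH, which releases serine, differed by -0.26 ± 0.07 (SE, adjusted p = 0.00353). SHMT2, the mitochondrial enzyme that moves a carbon from serine to folate, measured 212, 210.0 and 220.3 CPM against 314, 335 and 318 CPM, a change of -0.59 ± 0.06 (SE, adjusted p = 1.54e-08). MTHFD2, which oxidises that folate in mitochondria, measured 127, 124 and 136 CPM against 207, 199.6 and 205 CPM, a change of -0.66 ± 0.07 (SE, adjusted p = 3.99e-08). In each of these 5 genes every high library lay under every low library.

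ALDH1L2, which releases the folate-bound carbon as carbon dioxide in mitochondria, went the other way at 0.37 ± 0.16 log2 but missed the threshold (adjusted p = 0.0527), at about 8 to 10 CPM per group. PCK2, the mitochondrial enzyme that makes phosphoenolpyruvate, measured 13.8, 15.6 and 13.2 CPM in high and 21.1, 21.8 and 27.6 CPM in low cells, a change of -0.73 ± 0.11 (SE, adjusted p = 1.1e-05). ASNS, asparagine synthetase and a textbook ATF4 target, measured 41.5, 36.2 and 34.2 CPM in high and 49.1, 46.9 and 51.3 CPM in low cells. Its groups did not overlap and its change was -0.40 ± 0.09 (SE, adjusted p = 0.000595), smaller than that of PSAT1 or PHGDH. BCAT1, the cytosolic transaminase of the branched-chain amino acids, stood at 49.98, 47.5 and 50.2 CPM in high and 33.6, 33.7 and 32.99 CPM in low cells. With 0.56 ± 0.09 (SE, adjusted p = 1.01e-05) it was the single enzyme called higher. The C/EBP-ATF element shown above is in its promoter window, as in those of ASNS, called lower, and CHAC1, called higher.

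**Figure D2:**
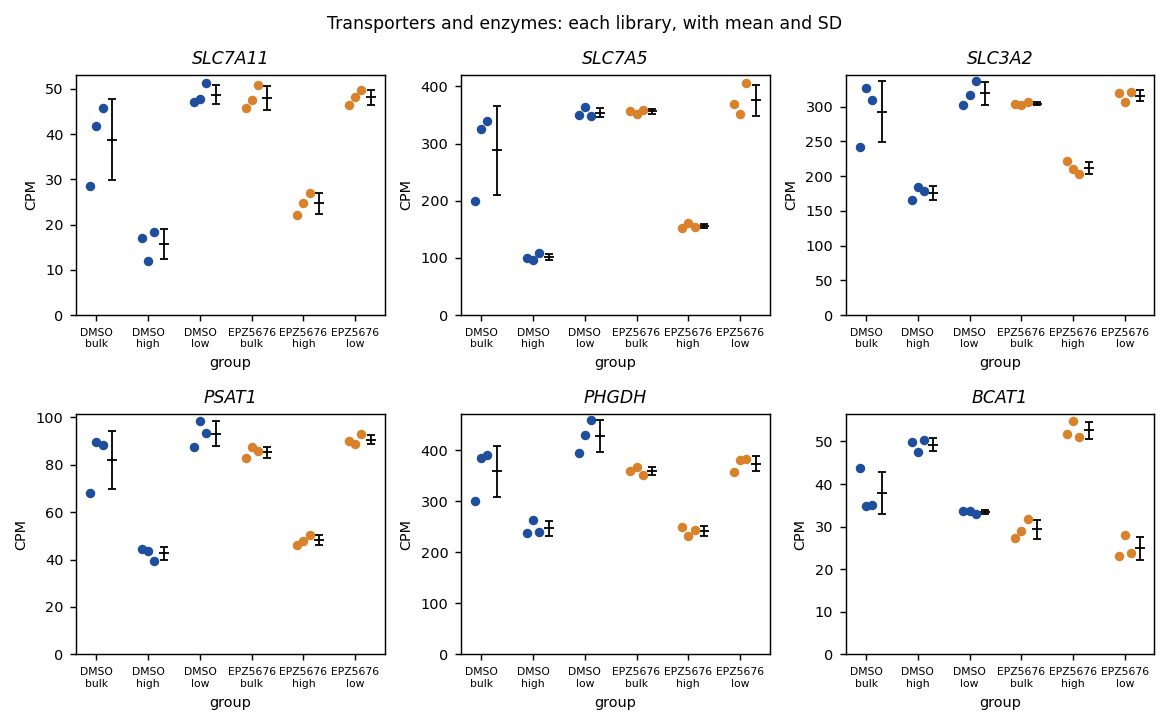
CPM (vertical axis, from 0) of SLC7A11, SLC7A5, SLC3A2, PSAT1, PHGDH and BCAT1 by group (horizontal axis). Points are libraries and bars the mean with SD over 3 libraries, blue for DMSO and orange for EPZ5676. SLC7A5 lies between 96.4 and 108 CPM in DMSO high cells and between 152.5 and 160.4 CPM in EPZ5676 high cells, while BCAT1 is highest in both high groups.

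The factors of the integrated stress response did not move as a block. Of 8, 3 were called higher (CEBPB, CHAC1 and CEBPG), 2 lower (TRIB3 and DDIT3), and ATF4, ATF5 and SESN2 were not called. The share called, 62.5%, was near the 56.3% of all genes, which also went both ways (29.6% higher and 26.7% lower). ATF4, the central factor, measured 356, 386 and 361 CPM in high and 335, 356 and 363 CPM in low cells. The groups overlapped, and the log2 fold change of 0.07 ± 0.05 (adjusted p = 0.298) concerns its RNA, while ATF4 is known for control of its translation. CEBPB, a C/EBP factor that can pair with ATF4, measured 321, 304 and 304 CPM in high and 154, 165 and 169.5 CPM in low cells. It was 1.90-fold higher, at 0.93 ± 0.07 (SE, adjusted p = 1.52e-09). CHAC1, an enzyme that breaks down glutathione, was nearly silent in low cells, at 0.590, 0.301 and 0.180 CPM, and measured 1.58, 1.35 and 1.39 CPM in high cells. Those levels rest on 12, 6 and 4 reads in low and 26, 28 and 20 reads in high libraries, so the change of 2.00 ± 0.42 (SE, adjusted p = 0.00034) is large but imprecise.

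CEBPG, another partner of ATF4, was higher by 0.28 ± 0.08 (SE, adjusted p = 0.00311). DDIT3 measured 16.03, 14.9 and 18.6 CPM in high and 16.9, 21.6 and 21.4 CPM in low cells. The lowest low library lay under the highest high library, and the call at -0.28 ± 0.12 (SE, adjusted p = 0.0461) was lost when any of 10 libraries was left out, with log2 values from -0.39 to -0.21 and adjusted p up to 0.185 (without DMSO high replicate 2). TRIB3, a pseudokinase induced by ATF4 and DDIT3, was lower, at -0.27 ± 0.07 (SE, adjusted p = 0.0022). ATF5 differed by -0.15 ± 0.09 and SESN2, which restrains mTORC1 when leucine is short, by 0.12 ± 0.10. VLDLR, a lipoprotein receptor, differed by 0.15 ± 0.07 (adjusted p = 0.0836). None of the last 3 was called.

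On the ER side ERN1 and XBP1 were called higher, and 6 of 8 chaperones and co-factors were called lower. Of all genes, 29.6% were called higher and 26.7% lower. ERN1, the sensor kinase and nuclease, measured 26.1, 25.3 and 22.9 CPM in high and 19.4, 19.2 and 18.9 CPM in low cells, a log2 fold change of 0.37 ± 0.09 (SE, adjusted p = 0.00156). XBP1, whose mRNA it splices, measured 134, 167 and 127 CPM in high and 103, 101 and 108 CPM in low cells. Neither gene's groups overlapped, and XBP1 changed by 0.46 ± 0.08 (SE, adjusted p = 6.68e-05), with spliced and unspliced forms counted together. HSPA5 (BiP), the main ER chaperone and the usual readout of ER stress, measured 651, 709 and 652 CPM in high and 680.4, 738 and 774 CPM in low cells. The groups overlapped, and its change of -0.12 ± 0.05 (SE, adjusted p = 0.049) lost its call when any of 14 libraries was left out, with log2 values from -0.18 to -0.08 and adjusted p up to 0.234.

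None of the 8 chaperones and co-factors was called higher, and the calls of HSPA5 and MANF were lost when some single libraries were left out. HYOU1, the chaperone that exchanges nucleotide on BiP, had by far the smallest p, at 240.4, 256 and 248 CPM in high and 365, 393 and 397 CPM in low cells. Its fold change was -0.63 ± 0.06 (SE, adjusted p = 1.38e-08), the single ER change of at least 1.5-fold. SDF2L1, a co-factor of the BiP cycle, was lower, at -0.57 ± 0.11 (SE, adjusted p = 0.00027) and CRELD2, a secreted ER stress protein, at -0.49 ± 0.12 (SE, adjusted p = 0.00148). DNAJC3, a BiP co-chaperone, was lower, at -0.22 ± 0.06 (SE, adjusted p = 0.00298). MANF, a secreted ER protein that binds BiP, differed by -0.17 ± 0.07 (SE, adjusted p = 0.032), a call lost without DMSO high replicate 1 or 3 or low replicate 2 (adjusted p up to 0.236). HSP90B1 (GRP94), at -0.10 ± 0.06, and DNAJB9, an ERN1-XBP1 target at 0.21 ± 0.11, were not called.

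The lectin chaperones CALR and CANX, which hold newly made glycoproteins, were lower, at -0.25 ± 0.05 (SE, adjusted p = 0.000219) and -0.22 ± 0.05 (SE, adjusted p = 0.000332). Of the disulfide isomerases, PDIA6 was lower, at -0.29 ± 0.07 (SE, adjusted p = 0.000825), and PDIA3 and PDIA4 differed by -0.06 ± 0.06 and -0.09 ± 0.05 and were not called. The degradation genes leaned the other way. SEL1L, the scaffold of the HRD1 ligase, was higher by 0.28 ± 0.07 (SE, adjusted p = 0.00179). EDEM1, which directs misfolded glycoproteins to degradation, was higher by 0.19 ± 0.07 (SE, adjusted p = 0.0323), a call lost without DMSO high replicate 3, DMSO low replicate 2 or 3 or EPZ5676 low replicate 1 (adjusted p up to 0.159). HERPUD1, which recruits ubiquilins to that ligase, differed by 0.04 ± 0.07. Scaling by library size alone leaves SEL1L higher, ends the EDEM1 call, and calls PDIA3, PDIA4, HSP90B1 and ATF5 lower, which gives 7 higher and 26 lower.

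Read per kb of exon (GENCODE 29 exon unions), the members spanned a wide range. Levels and ranks between genes depend on these lengths, which take in all annotated exons of a gene. The annotation behind the counts is not given, so the ranks are approximate. In DMSO low cells CALR had the highest mean level at 455 CPM per kb, followed by HSP90B1 (229.5), PDIA4 (212) and HSPA5 (187). The lowest were CHAC1 (0.173), ALDH1L2 (0.911) and ERN1 (1.77). CEBPB moved from rank 9 in low to rank 5 in high cells, and XBP1 from rank 19 to rank 11. SLC7A5 went from rank 10 to rank 19. CALR, HSP90B1, PDIA4 and HSPA5 led in both groups, in this order.

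Further genes of the same pathways, from 6 other lists, were read beside the members in high against low cells under DMSO, where 29.6% of all genes were called higher and 26.7% lower. Cytoplasmic tRNA synthetases, which charge tRNAs and are also ATF4 targets, were called lower in 16 and higher in 1 of 20, with a median log2 fold change of -0.40. NARS1 (asparagine) was lower, at -0.73 ± 0.07 (SE, adjusted p = 1.88e-08), and TARS1, YARS1 and FARSA at -0.57, -0.77 and -0.56. Of 21 tested further ATF4 targets, 6 were called higher and 10 lower. GADD45A, a growth arrest gene, was higher by 1.11 ± 0.07 (SE, adjusted p = 1e-10) and SLC38A2, a glutamine and alanine importer, by 0.59, while the proline enzymes ALDH18A1 and PYCR1 were lower, at -0.63 and -0.58. The proline enzymes thus went with the serine enzymes, and SLC38A2 went against the member transporters.

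Among 13 genes of the eIF2 kinases, phosphatase and exchange factor, 4 were called higher and 6 lower, or 76.9% called against 56.3% of all genes. PPP1R15A (GADD34), which brings the phosphatase to eIF2 and so ends the response, averaged 438 CPM in high and 166 CPM in low cells, a change of 1.40 ± 0.17 (SE, adjusted p = 7.63e-06). GCN1, a partner of the amino acid sensor kinase, was lower, at -0.40, and EIF2B4 and EIF2B3 of the exchange factor at -0.57 and -0.61. In the ATF6 branch and further degradation genes 7 of 18 were higher and 2 lower (50.0% called), with DERL3 at 1.71, EDEM3 at 0.73, HERPUD2 at 0.65 and ERLEC1 at 0.58. Further folding enzymes were higher in 9 and lower in 2 of 23 (47.8% called). Among the higher ones were the oxidase ERO1B (1.79) and the collagen-modifying enzymes PLOD2 (1.40), P4HA2 (1.13) and P4HA1 (0.35). The translocon, signal peptidase and signal recognition genes were higher in 2 and lower in 9 of 18 (61.1% called), with SRPRB at -0.55, SPCS1 at -0.54, SRP72 at -0.28 and SSR2 at -0.24. Medians of these 4 lists were -0.13, 0.06, 0.05 and -0.14, against 0.03 for all genes, so the tRNA synthetases stood farthest from 0.

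The same comparison under EPZ5676 uses 6 other libraries. The 4 transporters and the serine enzymes PHGDH and PSAT1 were again lower in high cells and CEBPB and BCAT1 again higher, with smaller differences in most. The 8 melanocytic markers were all lower there too, with a summed level of 1851 to 2024 CPM in high against 14130 to 14310 CPM in low cells. Of the 8 fibroblast markers 7 were again higher and LUM lower, at 654.8 to 805.8 CPM in high against at most 102.5 CPM in low cells, where COL3A1 was at 0, and their part in the results was not tested. Of the 40 genes, 24 were called (60.0%), 8 higher and 16 lower, against 48.9% of all genes tested, of which 25.8% were called higher and 23.1% lower. Among genes with a mean of at least 5 CPM, which leaves out CHAC1, 24 members were called, 8 higher and 16 lower. This share was near the 62.0% of all genes so kept. Libraries of the groups did not overlap for 10 higher and 19 lower members, against 31.5% and 28.8% of all genes. The median was -0.14, against 0.02 over all genes. Scaling by library size alone gave 4 higher and 20 lower, since XBP1, ALDH1L2, VLDLR and CEBPG lost their calls. Signs were the same under both agents for 35 of 40 genes, against 85.8% of all genes, and Pearson's r of the log2 fold changes over the 40 genes was 0.939 (Spearman's rho 0.938), against 0.915 over all genes. These are correlations across genes, which are not independent replicates. There were 21 genes called in both, all in the same direction, which is 70.0% of the calls under DMSO and 87.5% of those under EPZ5676. Over all genes these shares were 76.7% and 88.3%. In 18 of these 21 (85.7%) the change was smaller under EPZ5676, as it was in 74.7% of the 7819 genes called in both over all genes, and for no member was the difference between the agents itself called (BCAT1 had the smallest p, at 0.52 ± 0.12 (SE, adjusted p = 0.0766)).

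SLC7A5 measured 153, 160.4 and 155 CPM in EPZ5676 high and 369.9, 352 and 405 CPM in EPZ5676 low cells, a change of -1.27 ± 0.14 (SE, adjusted p = 5.16e-06). SLC7A11 measured 22.2, 24.7 and 27.1 CPM in high and 46.5, 48.1 and 49.8 CPM in low cells, a change of -0.96 ± 0.15 (SE, adjusted p = 5.94e-05). For both transporters the low libraries overlapped with the DMSO low libraries and the high libraries stood above the DMSO high ones. SLC3A2 measured 222, 209.6 and 204 CPM against 320.3, 307 and 321 CPM, a change of -0.58 ± 0.08 (SE, adjusted p = 3.1e-06), and SLC7A1 changed by -0.41. PSAT1 measured 46.3, 47.8 and 50.4 CPM against 90.2, 88.9 and 92.8 CPM, a change of -0.91 ± 0.08 (SE, adjusted p = 2.87e-08). PHGDH measured 250.3, 232 and 245 CPM against 357, 381 and 384 CPM, a change of -0.63 ± 0.08 (SE, adjusted p = 1.12e-06). All 5 of these genes with library values kept their groups apart.

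SHMT2 measured 245, 261 and 256 CPM in EPZ5676 high and 335, 335 and 331 CPM in low cells, a change of -0.39 ± 0.06 (SE, adjusted p = 4.95e-06). PCK2 measured 14.03, 13.9 and 16.4 CPM against 19.6, 24.4 and 23.4 CPM, a change of -0.61 ± 0.11 (SE, adjusted p = 0.000118). HYOU1 measured 298, 289 and 286 CPM against 403, 403 and 395 CPM, a change of -0.46 ± 0.06 (SE, adjusted p = 1.55e-06). Each of these 3 was lower in every high library. CEBPB measured 246, 243 and 240.1 CPM against 156, 143 and 153 CPM, a change of 0.69 ± 0.07 (SE, adjusted p = 1.27e-07). BCAT1 measured 51.8, 54.9 and 51.1 CPM against 23.1, 27.96 and 23.7 CPM, and its 1.07 ± 0.09 (SE, adjusted p = 9.51e-09) was larger than the 0.56 under DMSO. BCAT1 had the smallest p of the 40 here.

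The other 14 calls in EPZ5676 high against low cells had larger p-values, SLC7A1 among them. MTHFD2 (-0.34), SDF2L1 (-0.53), CRELD2 (-0.53), PDIA6 (-0.23), CANX (-0.21), TRIB3 (-0.19) and HERPUD1 (-0.26) were lower. CHAC1 (1.19), ALDH1L2 (0.41), EDEM1 (0.38), CEBPG (0.24), XBP1 (0.23) and VLDLR (0.19) were higher. Of these, VLDLR, ALDH1L2 and TRIB3 each lost the call without any of 4 libraries of the 6 compared (adjusted p up to 0.274, 0.205 and 0.145). XBP1 lost it without EPZ5676 low replicate 1 or 2 or high replicate 3 (up to 0.123), CEBPG without high replicate 1 (0.0656) and CHAC1 without high replicate 3 (0.0593). HERPUD1, ALDH1L2 and VLDLR were called here and not under DMSO. Called under DMSO and not here were ASNS, PSPH, DDIT3, ERN1, HSPA5, DNAJC3, MANF, CALR and SEL1L. ATF4, ATF5, SESN2, HSP90B1, DNAJB9, PDIA3 and PDIA4 were called in neither. Without the 6 libraries over 16% no feature, which leaves 1 EPZ5676 high library and 2 low ones, 12 of the 24 were called, and the lone library was assumed to vary like the others. Of the other lists, the tRNA synthetases were again mostly lower, 14 of 20 with 1 higher (75.0% called, against 48.9% of all genes). Of 21 further ATF4 targets, 7 were higher and 10 lower (81.0% called). The eIF2, ATF6, translocon and folding lists had 53.8%, 38.9%, 33.3% and 52.2% called.

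**Figure D3:**
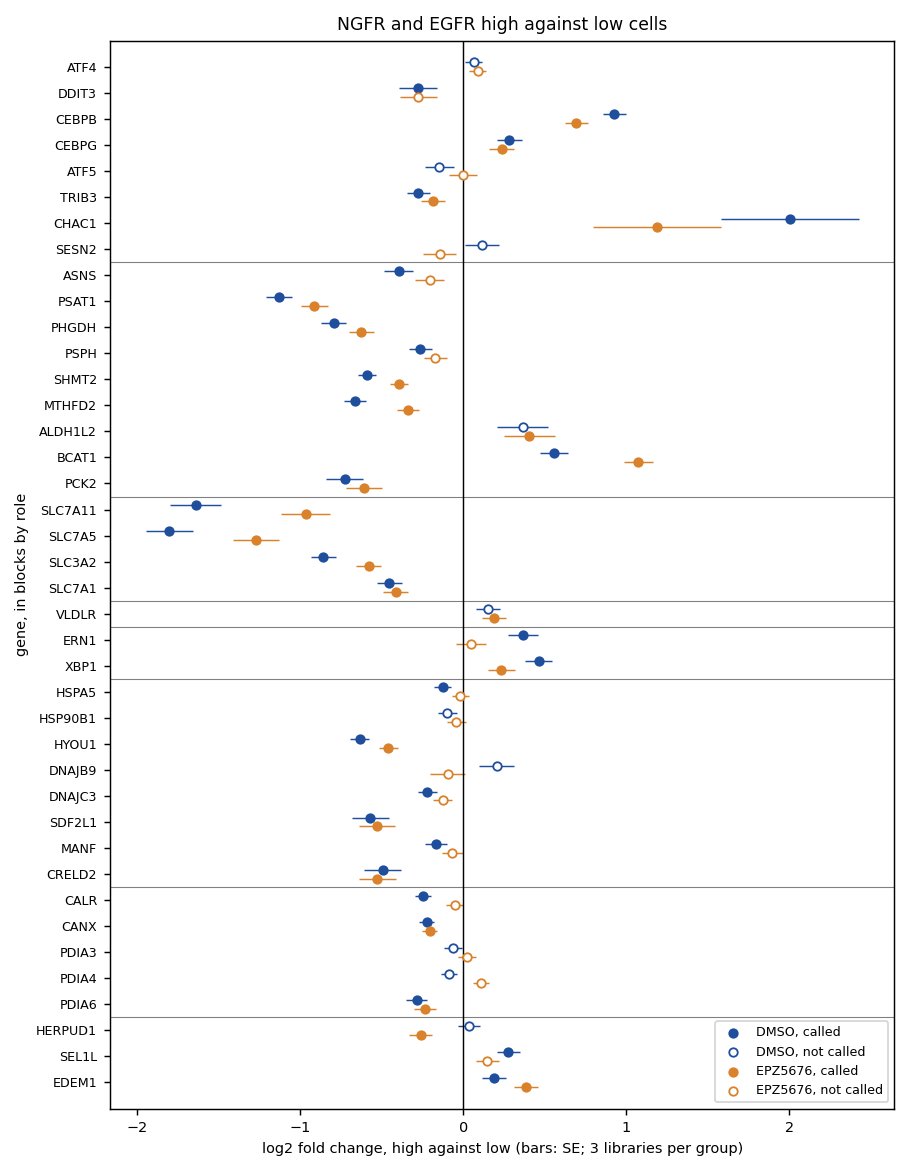
Log2 fold change of high against low cells (horizontal axis) for the 40 genes (vertical axis, in blocks by role) under DMSO (blue) and EPZ5676 (orange). Bars are 1 SE from the fit of all 18 libraries, with 3 libraries per group. Filled points are called and open points are not. The 4 transporters lie left of 0 under both agents, at -1.80 for SLC7A5 under DMSO and -1.27 under EPZ5676, and CEBPB lies right of 0 under both.

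EPZ5676 was then compared with DMSO within high cells, the comparison with the most calls among the treatment contrasts. High cells under the inhibitor had more SLC7A5, SLC7A11, SHMT2, HYOU1, CALR and PDIA4 RNA and less CEBPB, XBP1 and ERN1. These 9 of 40 calls (22.5%), 6 higher and 3 lower, compare with 3.0% of all genes tested, of which 1.95% were called higher and 1.04% lower. Among genes with a mean of at least 5 CPM, 9 members were again called, 6 higher and 3 lower, against 5.39% of all genes so kept. The median of the 40 was 0.02, against 0.00 over all genes, and 17 had an unadjusted p under 0.05, against 16.3% of all genes. Libraries did not overlap for 13 higher and 4 lower members, against 12.7% and 12.1% of all genes. SLC7A5 and SLC7A11 were the 2 members called with at least a 1.5-fold change, against 0.922% of all genes. This contrast shares the DMSO high libraries with high against low cells under DMSO, so the values of the 2 contrasts are set side by side and not tested together. SLC7A5, which averaged 102 CPM in DMSO high cells, averaged 156 CPM here, a change of 0.62 ± 0.14 (SE, adjusted p = 0.0332), beside -1.80 for high against low. SLC7A11 averaged 24.7 against 15.8 CPM, a change of 0.66 ± 0.16 (SE, adjusted p = 0.0367), beside -1.64. Every EPZ5676 high library of either gene lay above every DMSO high library, and below every low library under either agent. SLC3A2 differed by 0.26 ± 0.08 and missed the threshold (adjusted p = 0.07).

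CALR measured 1255, 1243 and 1220 CPM in EPZ5676 high and 1032, 1061 and 1034 CPM in DMSO high cells, a change of 0.25 ± 0.05 (SE, adjusted p = 0.00659). PDIA4 measured 765, 757 and 766 CPM against 639.9, 664 and 655 CPM, a change of 0.22 ± 0.05 (SE, adjusted p = 0.0119). HYOU1 measured 298, 289 and 286 CPM against 240.4, 256 and 248 CPM, a change of 0.23 ± 0.06 (SE, adjusted p = 0.0343). These ER folding genes rose by less than 1.2-fold, with tight libraries that did not overlap. SHMT2 measured 245, 261 and 256 CPM against 212, 210.0 and 220.3 CPM, a change of 0.25 ± 0.06 (SE, adjusted p = 0.0152).

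CEBPB measured 246, 243 and 240.1 CPM in EPZ5676 high and 321, 304 and 304 CPM in DMSO high cells, a change of -0.35 ± 0.07 (SE, adjusted p = 0.00784). XBP1 measured 109, 107 and 119.9 CPM against 134, 167 and 127 CPM, a change of -0.36 ± 0.08 (SE, adjusted p = 0.0229). ERN1 measured 21.9, 17.9 and 19.0 CPM against 26.1, 25.3 and 22.9 CPM, a change of -0.34 ± 0.09 (SE, adjusted p = 0.0486). For these 3 genes every EPZ5676 library lay under every DMSO library, although XBP1 spread widely in DMSO high cells. PSAT1, PHGDH and ASNS, lower in high cells under DMSO, differed by 0.18 ± 0.08, -0.03 ± 0.08 and 0.00 ± 0.09 and were not called. Of the 9, CALR and CEBPB were called with each of the 18 libraries left out in turn. SLC7A5 and HYOU1 lost their calls without any of 8 libraries (adjusted p up to 0.13 and 0.126), SLC7A11 without any of 13 (up to 0.135) and ERN1 without any of 16 (up to 0.248). SLC7A5 stayed between 0.58 and 0.67 on the log2 scale and SLC7A11 between 0.48 and 0.78. SHMT2 lost its call without DMSO high replicate 1 or 2 or EPZ5676 high replicate 2 or 3 (up to 0.103), XBP1 without DMSO high replicate 2 or EPZ5676 high replicate 1 or 2 (up to 0.131) and PDIA4 without DMSO high replicate 1 or EPZ5676 high replicate 2 or 3 (up to 0.0642).

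Beside these calls, the 8 melanocytic markers had a summed level of 1851 to 2024 CPM in EPZ5676 high against 1235 to 1448 CPM in DMSO high cells, with DCT and S100B called higher. The 8 fibroblast markers had 654.8 to 805.8 against 1180 to 1510 CPM, with LUM called higher, and their part in the result was not tested. The share of reads on no feature was over 16% in EPZ5676 high replicates 1 and 2 and in DMSO high replicate 3. With that share as a covariate 8 of the 9 were called, all but ERN1. Without the libraries over 16%, which leaves a lone EPZ5676 high library, none was called, at SLC7A5 0.66, SLC7A11 0.92, CALR 0.23 and CEBPB -0.37. Without DMSO bulk replicate 1, which belongs to neither group, 14 were called, and the filter then left 18784 genes. The added ones were SLC3A2, MTHFD2, MANF, HSPA5 and PSAT1, and 10.7% of all genes were then called.

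**Figure D4:**
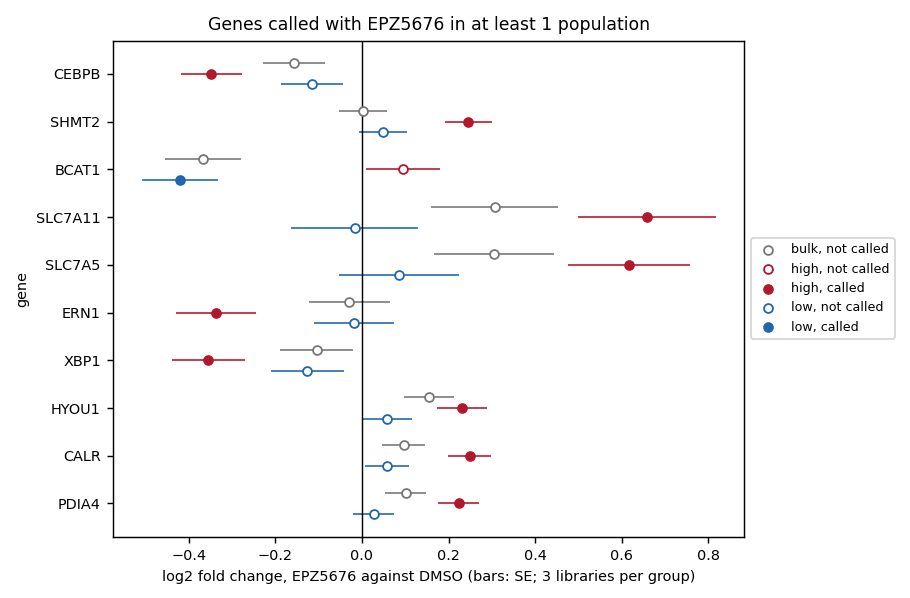
Log2 fold change of EPZ5676 against DMSO (horizontal axis) in bulk (grey), high (red) and low (blue) cells. The 10 genes called in at least 1 population are shown (vertical axis). Bars are 1 SE from the fit of all 18 libraries, with 3 libraries per group. Filled points are called and open points are not. In high cells SLC7A11 and SLC7A5 lie at 0.66 and 0.62 and near 0 in low cells, while BCAT1 lies at -0.42 in low and 0.10 in high cells.

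In low cells 1 of the 40 genes, BCAT1, was called lower under EPZ5676 (2.5%), against 1.04% of all genes tested. BCAT1 measured 23.1, 27.96 and 23.7 CPM under EPZ5676 and 33.6, 33.7 and 32.99 CPM under DMSO, a change of -0.42 ± 0.09 (SE, adjusted p = 0.0185). Its groups did not overlap, and the call was lost without any of 5 of the 6 libraries compared, at -0.51 to -0.37 and adjusted p up to 0.116 (without EPZ5676 low replicate 3). Libraries did not overlap for 1 higher and 11 lower members, against 11.6% and 11.5% of all genes. At an unadjusted p under 0.05 there were 9 members, against 2169 of the 18121 genes, among them HERPUD1 (0.22 ± 0.07), DDIT3 (0.28 ± 0.11), TRIB3 (-0.21 ± 0.07) and PHGDH (-0.20 ± 0.08). SLC7A5 differed by 0.09 ± 0.14 and SLC7A11 by -0.02 ± 0.15 there, neither called. Without DMSO bulk replicate 1, BCAT1, PHGDH and SLC7A1 were called lower and HERPUD1 higher, while calls over all genes went from 1.04% to 5.15%.

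In bulk cells none of the 40 genes was called by edgeR, against 0.728% of all genes tested. There were 11 at an unadjusted p under 0.05, against 12.3% of all genes, and DESeq2 called 2, against 1.6% of all genes. Libraries did not overlap for 10 higher and 2 lower members, against 8.21% and 7.64% of all genes. BCAT1 came nearest, at 27.4, 28.95 and 31.7 CPM under EPZ5676 and 43.7, 34.9 and 35.04 CPM under DMSO, a difference of -0.37 ± 0.09 (SE, adjusted p = 0.0511). HERPUD1 measured 78.03, 74.04 and 81.3 CPM against 61.9, 69.5 and 62.4 CPM, a difference of 0.27 ± 0.07 (SE, adjusted p = 0.0746). Neither gene's groups overlapped, and both differed in the direction seen in low cells. DMSO bulk replicate 1 was the lowest of the group for the transporters, with SLC7A5 at 199, 326 and 339.9 CPM in replicates 1 to 3 against 357, 352 and 359.5 CPM under EPZ5676. Without that library the SLC7A5 difference went from 0.31 to 0.10, that of SLC7A11 from 0.31 to 0.13 and that of BCAT1 from -0.37 to -0.26.

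A comparison added after seeing the data took the mean of the EPZ5676 changes in bulk, high and low cells. It called 13 of the 40 genes, 9 higher and 4 lower, against 8.26% of all genes tested, of which 4.47% were called higher and 3.79% lower. DDIT3, which no single population called, was higher by 0.29 ± 0.07 (SE, adjusted p = 0.00804), with values of 0.31 in bulk cells, 0.28 in high cells and 0.28 in low cells. Its libraries measured 20.1, 23.1 and 24.2 CPM in bulk, 19.3, 21.2 and 19.5 CPM in high and 25.2, 24.7 and 22.8 CPM in low cells under EPZ5676. Under DMSO they measured 15.5, 20.3 and 18.5 CPM in bulk, 16.03, 14.9 and 18.6 CPM in high and 16.9, 21.6 and 21.4 CPM in low cells. Several ER genes were also higher on average, with MANF at 0.16, HYOU1 at 0.15, HERPUD1 at 0.14, CALR at 0.13, PDIA4 at 0.12 and HSPA5 at 0.10. HERPUD1 was not higher in high cells, where it averaged 66.27 CPM under EPZ5676 and 69.9 CPM under DMSO. In low cells PDIA4 averaged 706.7 CPM under EPZ5676 against 693.5 CPM under DMSO, and HSPA5 750.1 against 730.8 CPM. SLC7A5 (0.34) and SLC7A11 (0.32) were higher on average, while their low cells differed by 0.09 and -0.02. BCAT1 (-0.23), CEBPB (-0.21), XBP1 (-0.20) and CEBPG (-0.14) were lower. BCAT1 was not lower in high cells, where it averaged 52.6 CPM under EPZ5676 and 49.25 CPM under DMSO. Without DMSO bulk replicate 1 there were 20 calls, 11 higher and 9 lower, against 13.5% of all genes.

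The interaction asks whether the high-low difference depended on the agent, and it called none of the 40 genes by edgeR, against 0.32% of all genes tested. There were 12 at an unadjusted p under 0.05, against 11.1% of all genes, and DESeq2 called 1, against 0.977% of all genes. BCAT1 was nearest, at 0.52 ± 0.12 (SE, adjusted p = 0.0766). MTHFD2 followed at 0.32 ± 0.09 (SE, adjusted p = 0.161) and SLC7A11 had a large but imprecise 0.68 ± 0.22 (SE, adjusted p = 0.232). All 4 transporters had a positive value, with SLC7A5 at 0.53 ± 0.20. These estimates are thus not called as differences between high and low cells in the response to EPZ5676 when all 18 libraries are used. Without DMSO bulk replicate 1, 10 members were called, against 5.71% of all genes, and their values are given among the additional observations.

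**Figure D5:**
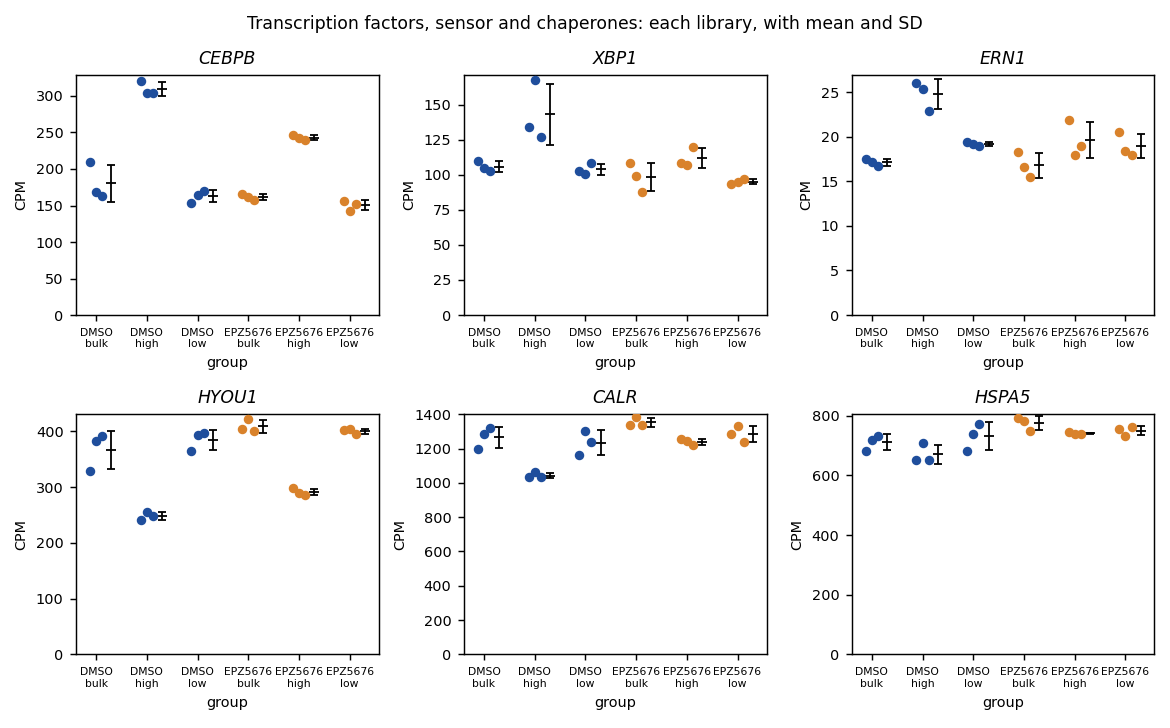
CPM (vertical axis, from 0) of the factors CEBPB and XBP1, the sensor ERN1 and the ER proteins HYOU1, CALR and HSPA5 by group (horizontal axis). Points are libraries and bars the mean with SD over 3 libraries, blue for DMSO and orange for EPZ5676. CEBPB is highest in DMSO high cells, above 303 CPM, and lies between 240.1 and 246 CPM in EPZ5676 high cells, while HYOU1 is lowest in DMSO high cells.

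Among the other pathway lists in high cells, EPZ5676 against DMSO called none of 20 tRNA synthetases, 21 further ATF4 targets and 13 eIF2 genes. It called 1 of 18 translocon genes, 1 of 18 genes of the ATF6 branch and degradation, and 3 of 23 folding enzymes (13.0%), against 3.0% of all genes. SSR2 of the translocon-associated complex was higher by 0.24 ± 0.06 (SE, adjusted p = 0.0227) and EDEM3 lower, at -0.29 ± 0.08 (SE, adjusted p = 0.0495). Of the folding enzymes, P4HB, the main disulfide isomerase, was higher by 0.19 ± 0.05 (SE, adjusted p = 0.0402), while P4HA1 and the oxidase ERO1A were lower, at -0.27 and -0.31. None of the 6 lists had a call in bulk or low cells or in the interaction by edgeR.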

How the data were processed

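Poly(A) RNA of WM989 cells was sequenced in 18 libraries. The authors deposited raw counts per Ensembl gene and library; the submitters' processing notes name STAR, HTSeq and the build hg19. Tool versions, strand setting and annotation release are not given in the sources used here, so overlapping and antisense genes may share reads. The 5 HTSeq summary lines, including reads on no feature (12.8% to 28.65% of a library), were left out. No 2 libraries were identical.

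The main tests used edgeR 4.0.16 in R 4.3.3 (filterByExpr, TMM factors, robust quasi-likelihood fit of 6 group means over all 18 libraries). P-values were adjusted by Benjamini-Hochberg over 18121 genes in each of 6 comparisons, with a threshold of 0.05. Standard errors came from the quasi-likelihood F statistic. The members and lists were chosen with earlier results of these data known. Every member is named, library values are given for the called members of smallest p (at most 12 for high against low under DMSO and 10 elsewhere) and for 7 named genes, and at most 4 called genes per other list are named.

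Alternatives were RLE factors, library size alone, DESeq2 1.42.0, no filter, limma-voom (limma 3.58.1), genes with mean 5 CPM or more, only the groups compared, a replicate block, the no-feature share as covariate, leaving out libraries over 16% no feature, and leaving out each library. The pipeline was tested on simulated data. Figures used matplotlib 3.10.9 and tables pandas 2.3.3 under Python 3.11.15.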

Additional observations from a re-analysis of the deposited data

Results flagged for a closer look

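The test of the difference between high and low cells in their response to EPZ5676 called 10 of the 40 genes once DMSO bulk replicate 1 was left out, and none with all 18 libraries. That library is in none of the groups of the contrast, and without it the filter left 18784 genes in place of 18121. Values are log2 differences of the high-low change under EPZ5676 minus that under DMSO. Positive were SLC7A11 (0.683), SLC7A5 (0.535), BCAT1 (0.514), MTHFD2 (0.326), SLC3A2 (0.28), SHMT2 (0.199), PDIA4 (0.198) and CALR (0.194). Negative were HERPUD1 (-0.297) and CEBPB (-0.231). Adjusted p-values (edgeR) ran from 4.69e-06 for SLC7A5 to 0.0469 for SHMT2. In the same fit 5.71% of all genes were called, against 0.32% with all libraries. The values themselves hardly moved, SLC7A11 being 0.68 and BCAT1 0.52 with all 18 libraries.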

How the results depend on the processing

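With 3 libraries per group and a spread shared over 18, counts of called members depended on single libraries in the treatment comparisons more than in the sort. Leaving out each library in turn gave 26 to 32 called members for high against low cells under DMSO, 20 to 29 under EPZ5676, 0 to 2 for EPZ5676 in bulk, 2 to 14 in high cells (2 without EPZ5676 high replicate 2, 14 without DMSO bulk replicate 1), 0 to 4 in low cells and 0 to 10 for the interaction. Of the calls made with all libraries, 26 of 30, 18 of 24, 2 of 9 and 0 of 1 were kept with every library left out in turn, and 26, 12, 0 and 0 under all 28 alternatives. The 26 under all alternatives include CHAC1, which the limit of 5 CPM removed, so that alternative did not test it. Without the libraries over 16% no feature, calls went from 24 to 12 under EPZ5676, from 9 to 0 in high cells and from 1 to 0 in low cells; fewer samples were then compared. In bulk, library size alone and no filter each gave 1 call and DESeq2 2, against 0. In low cells a fit of only the groups compared gave 4, against 1. For the interaction no filter gave 3, DESeq2 1 and only the groups compared 5, against 0. The cause of these shifts was not tested. No change of sign was found for a called member. Over all genes, library size alone changed the split of higher and lower calls from 5355 and 4844 to 4746 and 5564 under DMSO and from 4668 and 4190 to 4067 and 4931 under EPZ5676. All-gene counts also moved by over 1.5 times: in bulk from 132 to 440 (no filter), 290 (DESeq2), 2 (only the groups compared), 50 (covariate) and 0 (without libraries over 16%); in high cells from 543 to 948 (no filter), 1413 (only the groups compared) and 5 (without libraries over 16%); in low cells from 188 to 373 (no filter), 317 (DESeq2), 1028 (only the groups compared) and 7 (without libraries over 16%); in the interaction from 58 to 304, 177, 863 and 0; and under EPZ5676 from 8858 to 4176 without libraries over 16%. Single libraries also moved these counts. Without DMSO bulk replicate 1, bulk had 550, high cells 2018, low cells 968 and the interaction 1072. Bulk had 39 without EPZ5676 bulk replicate 2, low cells 60 without EPZ5676 low replicate 2, and without EPZ5676 high replicate 2 high cells had 200 and the interaction 14. The fit with the replicate number as a block called 29, 26, 0, 9, 1 and 0 members in the 6 comparisons. The deviations of same-numbered libraries from their group means (log2 CPM, over genes) correlated between -0.34 and 0.296. The numbers were therefore not taken to pair libraries.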

Other observations

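DMSO bulk replicate 1 lay between the high and low groups for several members. SLC7A5 stood at 199, 326 and 339.9 CPM, PSAT1 at 67.9, 89.7 and 88.2 CPM, CEBPB at 209.9, 168 and 163 CPM and BCAT1 at 43.7, 34.9 and 35.04 CPM in DMSO bulk replicates 1 to 3. In the same order the summed level of NGFR, EGFR and DOT1L was 418.2, 168.7 and 149.7 CPM, and that of the 8 fibroblast markers 465, 93.2 and 93.5 CPM.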
